A study of Mus musculus with 12 samples.

Results

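Oligodendrocytes arise from oligodendrocyte precursor cells (OPCs), which carry the PDGF receptor Pdgfra and divide. A precursor that leaves this state first becomes a committed precursor, which loses Pdgfra and expresses Bmp4, Gpr17 and Neu4. It then becomes a newly formed oligodendrocyte, which expresses Enpp6, Tcf7l2 and Itpr2, extends processes to axons and has yet to fill its sheaths with the mature myelin proteins. These stages are short and their cells are rare in the adult brain, and new oligodendrocytes continue to be made in the adult hippocampus.

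The nuclei described here were committed precursors and newly formed oligodendrocytes by a rule on raw counts of unique molecular identifiers (UMIs, 1 per captured RNA molecule). A nucleus was a member when it had 500 to 10000 detected genes, at least 1 UMI of at least 2 of Enpp6, Bmp4 and Gpr17, no UMI of Pdgfra, at most 1 UMI in all of the neuronal transmitter genes Slc17a7, Slc17a6, Gad1 and Gad2, and fewer than 5 UMIs of the astrocyte transporter Slc1a2. Of 184957 nuclei with 500 to 10000 genes, 187 were members, which is 0.101%. Enpp6 is a choline phosphodiesterase, Bmp4 a secreted ligand of the TGF-beta family, and Gpr17 a G protein-coupled receptor that holds back maturation. The members were selected by the counts of these genes, so their levels of Enpp6, Bmp4, Gpr17, Pdgfra, Slc1a2 and the transmitter genes are given as a description.

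The nuclei came from the left hippocampus of female mice, sorted and profiled by droplet-based single-nucleus RNA sequencing of transcript 3′ ends. The 12 libraries were 3 of WT mice and 3 of 3xTg-AD mice at 6 months, and 3 of each at 12 months, with no treatment. 3xTg-AD mice, on a mixed C57BL/6 and 129 background, carry human APP with the Swedish mutation and human MAPT with P301L, both driven by the Thy1.2 promoter, and a further allele that is not described here. WT mice lacked these alleles. The Thy1.2 promoter acts mainly in neurons. The libraries held 79177051 to 128323908 UMIs and 11352 to 19811 retained nuclei each. Of 181379 distinct barcodes, 4216 were found in more than 1 library, but no barcode was a member in more than 1 library, and 8 member barcodes were found in another library.

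The limits of the rule removed nuclei step by step. At least 2 of Enpp6, Bmp4 and Gpr17 were found in 272 nuclei, of which 225 had no Pdgfra UMI, 194 of these also had at most 1 transmitter UMI, and 187 also had fewer than 5 Slc1a2 UMIs. Just outside the rule, 38 nuclei met all limits but for Pdgfra, 6 had 2 transmitter UMIs, and 7 had at least 5 Slc1a2 UMIs. A further 8746 nuclei met the other limits with only 1 of the genes Enpp6, Bmp4 and Gpr17, and in 7692 of them that gene was Enpp6. Just inside the rule, 21 members had exactly 1 UMI of each of only 2 of these genes, and 21 had 1 transmitter UMI.

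All 3 genes were found together in 92 members (49.2%), Enpp6 and Gpr17 without Bmp4 in 61, Enpp6 and Bmp4 without Gpr17 in 25, and Bmp4 and Gpr17 without Enpp6 in 9. The members had a median of 5053 UMIs (743 to 16515) and 2216 genes, against a median of 5335 UMIs over all retained nuclei. For background, in 54561 nuclei with at least 3 transmitter UMIs, at a median of 9568 UMIs, Enpp6 was found in 1.5%, Bmp4 in 0.3% and Gpr17 in 0.6%, whereas 95.2%, 67.4% and 86.6% of members had them.

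The members were set beside the stages on either side. OPC-gated nuclei (3955, median 3433 UMIs) had Pdgfra and at least 1 of Cspg4, C1ql1, Sox10, Olig1 and Olig2. Mature-gated nuclei (29356, median 2004 UMIs) had no Pdgfra and at least 2 of the myelin and mature oligodendrocyte genes Mog, Mag, Opalin, Ermn and Aspa, with the same limits on transmitter genes and Slc1a2. Of the 187 members, 53 met this criterion too, 28 inside the cluster of lineage nuclei described below and 25 outside it, and they were kept as members and left out of the mature-gated nuclei. Levels are in CPM, the UMIs of a gene per 1000000 UMIs of the same nuclei, pooled over libraries unless libraries are named. As the nuclei were selected by expression, these levels are described without a test.

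Tcf7l2 and Itpr2, markers of the newly formed stage that the rule did not use, were high in members. Tcf7l2, a transcription factor of the Wnt pathway that newly formed oligodendrocytes need, was found in 84.5% of members. Its level in members was 1110 to 2528 CPM over the 12 libraries (median 1973), above both OPC-gated (155 to 246 CPM) and mature-gated nuclei (63.5 to 125 CPM) in 12 of 12 libraries. Itpr2, a calcium channel of the endoplasmic reticulum, lay at 505 to 1699 CPM in members (median 1178). It exceeded the OPC-gated nuclei (401 to 556 CPM) in 11 of 12 libraries and the mature-gated nuclei (22.0 to 40.8 CPM) in 12 of 12, and the exception was replicate 7 of WT at 6 months, with 505 against 556 CPM.

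The members were next located by genes that the rule did not use. The 31205 nuclei with at least 3 of 12 oligodendrocyte lineage genes, within the same limits on transmitter genes and Slc1a2, were clustered without Enpp6, Bmp4, Gpr17 and Pdgfra. A single cluster of 188 nuclei, found at resolutions of both 0.5 and 1, held 132 of the 187 members (70.6%), and members made up 70.2% of it. Of its 56 other nuclei, 51 had 1 of the rule genes, 5 had none and 3 had Pdgfra. The remaining members were 32 in other lineage clusters and 23 that did not reach 3 lineage genes. Along the first principal component the members of the cluster lay between the precursors and the mature nuclei, with a median score of 12.7 against 28.2 for OPC-gated and -4.19 for mature-gated nuclei, and the members in other lineage clusters lay near the mature nuclei with 1.25.

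**Figure D1:**
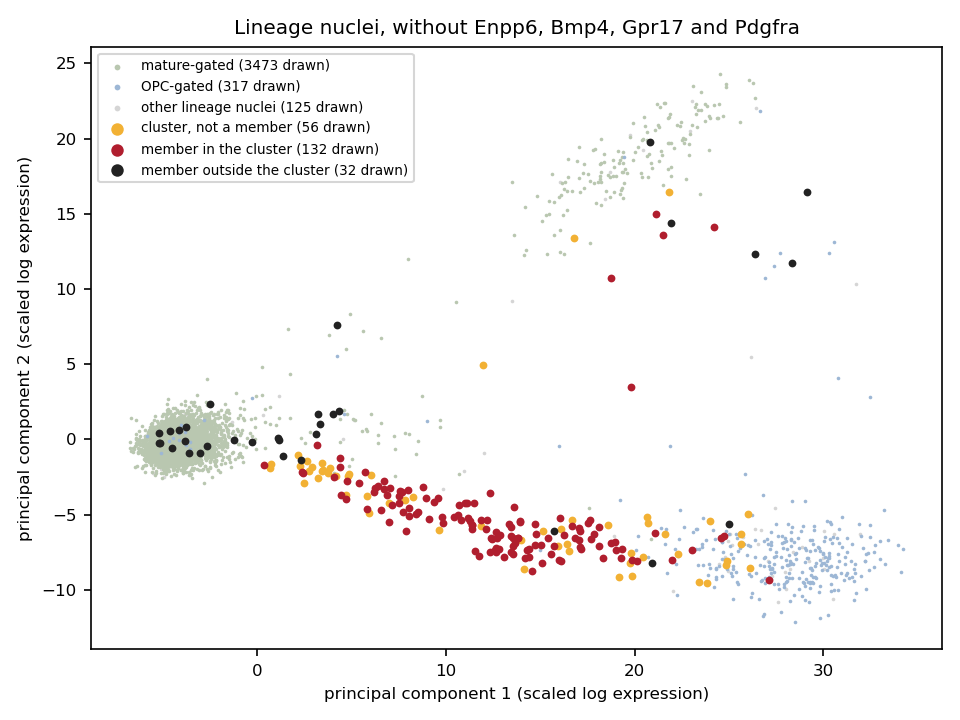
Map of lineage nuclei on principal components 1 and 2 of scaled log expression, computed without Enpp6, Bmp4, Gpr17 and Pdgfra; each point is a nucleus, and OPC-gated, mature-gated and other nuclei are thinned for drawing. Members inside the cluster (median score 12.7) lie between OPC-gated (28.2) and mature-gated nuclei (-4.19) on the horizontal axis, and members outside it lie nearer the mature nuclei (1.25).

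The 55 members outside the cluster carried more RNA of other cell types than the members inside it. Doublets were called with Scrublet, which scores each nucleus against mixtures of 2 nuclei. It called 33 members (17.6%), 16 of 132 inside the cluster (12.1%) and 17 of 55 outside (30.9%), against 6.93% of all retained nuclei, 8.93% of OPC-gated and 6.11% of mature-gated nuclei. The summed level of 9 neuronal markers was 1052 CPM in members inside the cluster and 4886 CPM outside. Over all members it ranged over libraries from 832 to 2493 CPM in WT at 6 months, 394 to 2133 CPM in 3xTg-AD at 6 months, 1902 to 4543 CPM in WT at 12 months and 621 to 4310 CPM in 3xTg-AD at 12 months. The astrocyte list (8 genes) summed to 55.8 CPM inside the cluster and 256 CPM outside, the microglial list (8) to 28.5 and 87.6 CPM, the vascular list (8) to 9.08 and 125 CPM, and the ependymal and choroid list (6) to 36.3 and 122 CPM. OPC-gated and mature-gated nuclei had 2695 and 3252 CPM (neuronal), 602 and 264 (astrocyte), 60.6 and 76.8 (microglial), 27.5 and 20.3 (vascular), and 183 and 173 (ependymal and choroid). Members outside the cluster thus exceeded both gates for the neuronal, microglial and vascular lists only. The rule and both gates capped the transmitter genes of the neuronal list and Slc1a2 of the astrocyte list. Of these lists 9 of 9 neuronal, 7 of 8 astrocyte, 8 of 8 microglial, 7 of 8 vascular and 3 of 6 ependymal and choroid genes had at least 1 UMI in members, and the astrocyte marker Gfap and the endothelial marker Cldn5 were the astrocyte and vascular genes at 0. At 12 months, 7 of 11 members of WT replicate 4 and 6 of 8 of WT replicate 8 were called doublets, against 1 to 4 in each of the other libraries. The part of doublets in the comparisons of expression was not tested beyond leaving them out.

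The genes highest in members against both neighbouring stages were ranked by the smaller of the log2 ratios, with 5 CPM added. The antisense transcript 9630013A20Rik led the list, with a level of 2347 CPM in members, 24.6 CPM in OPC-gated and 34.2 CPM in mature-gated nuclei. Bmp4, a gene of the rule, came next with 303, 2.1 and 0.5 CPM. Frmd4a, a scaffold protein of cell junctions, was at 12409, 532 and 404 CPM. Gm13187 and Gm36988 lie inside Frmd4a (GRCm38, chr2:4017717-4614043, + strand), Gm13187 on the opposite strand at chr2:4287595-4301167 and Gm36988 on the same strand at chr2:4316479-4318886. Their levels in members of 388 and 318 CPM may share reads with Frmd4a and are uncertain for that reason.

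Pik3r3, a regulatory subunit of PI3 kinase, had 1995 CPM in members, 81.8 CPM in OPC-gated and 77 CPM in mature-gated nuclei. Fyn, the Src-family kinase that acts at the contact of oligodendrocyte and axon, had 3985, 332 and 133 CPM. Kif19a, a kinesin, had 221, 3.5 and 1.7 CPM. The others were 9530059O14Rik and Gm26834 (long non-coding RNAs), Pdcd4, Epb41l2, Nhsl2, Pde9a and Parvb. For these 7 the smaller ratio ranged from 3.62 to 4.37 on the log2 scale. All 15 genes were higher in members than in both stages in 12 of 12 libraries, except for Gm26834, which was higher in 11.

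Genes of the precursor programme were low in members in part only. The proteoglycan Cspg4 was at 33.0 CPM in members and 306 CPM in OPC-gated nuclei. Lhfpl3 was at 1129 against 5519 CPM, the phosphatase Ptprz1 at 505 against 2445 CPM, the xylosyltransferase Xylt1 at 642 against 2578 CPM and the transcription factor Sox5 at 433 against 1456 CPM. Each of these was lower in members in 12 of 12 libraries. Sox6, which with Sox5 holds precursors back, was instead at 2733 against 1940 CPM, and the matrix protein Tnr at 8306 against 3536 CPM, both higher in members in 12 of 12 libraries. The summed level of the 10 precursor genes was 14711 CPM in members, 20298 CPM in OPC-gated and 414 CPM in mature-gated nuclei. Part of this was set by the gates, since the sum holds Pdgfra, which members and mature-gated nuclei lack by rule and OPC-gated nuclei must have (797 CPM), and Cspg4 and C1ql1, which could place a nucleus in the OPC gate.

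Genes of the committed precursor stage did not all behave alike. Neu4, a sialidase, was at 294 CPM in members and 235 CPM in OPC-gated nuclei. Nkx2-2, a homeodomain factor that promotes differentiation, was at 153 against 50.0 CPM, Sox4 at 132 against 34.6 CPM and Lims2 at 145 against 53.1 CPM, and these 4 genes were higher in members in 12 of 12 libraries. Sox11 was lower, at 11 against 22.7 CPM, and higher in members in only 2 libraries, and Vcan was at 894 against 1619 CPM and lower in all 12.

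Genes of the newly formed stage were mostly above both neighbours. Bcas1, a protein of early myelinating cells, was at 5114 CPM in members, 487 CPM in OPC-gated and 606 CPM in mature-gated nuclei, with a range over libraries of 4170 to 6186 CPM in members. Tns3, a focal adhesion protein, was at 2448, 331 and 155 CPM, and Chn2, a GTPase-activating protein for Rac, at 1222, 76.5 and 153 CPM. Rras2 was at 163, 21.2 and 14.3 CPM. Bcas1, Tns3, Chn2 and Rras2 were above both stages in 12 of 12 libraries. Casr, the calcium-sensing receptor, had 6 UMIs, all in 1 of the 187 members.

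Myelin genes were uneven. Mbp, which codes for myelin basic protein, was at 2838 CPM in members, against 192 CPM in OPC-gated and 3413 CPM in mature-gated nuclei, and it was above the mature-gated level in 2 of 12 libraries. Mag, an adhesion protein of myelin, was at 270 against 47.7 and 881 CPM and above the mature-gated level in none. Mobp was at 263 CPM in members and 1426 CPM in mature-gated nuclei, Mog at 180 against 1049 CPM and Aspa, an enzyme of mature oligodendrocytes, at 78.9 against 1051 CPM. Mag, Mog and Aspa are genes of the mature gate, so that their higher level in mature-gated nuclei was in part set by it. Most of the Mobp lay in members outside the cluster, which had 841 CPM against 23.4 CPM inside it. The 10 mature genes together were at 291 CPM in members inside the cluster, 2036 CPM outside it, 580 CPM in OPC-gated and 7194 CPM in mature-gated nuclei.

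**Figure D2:**
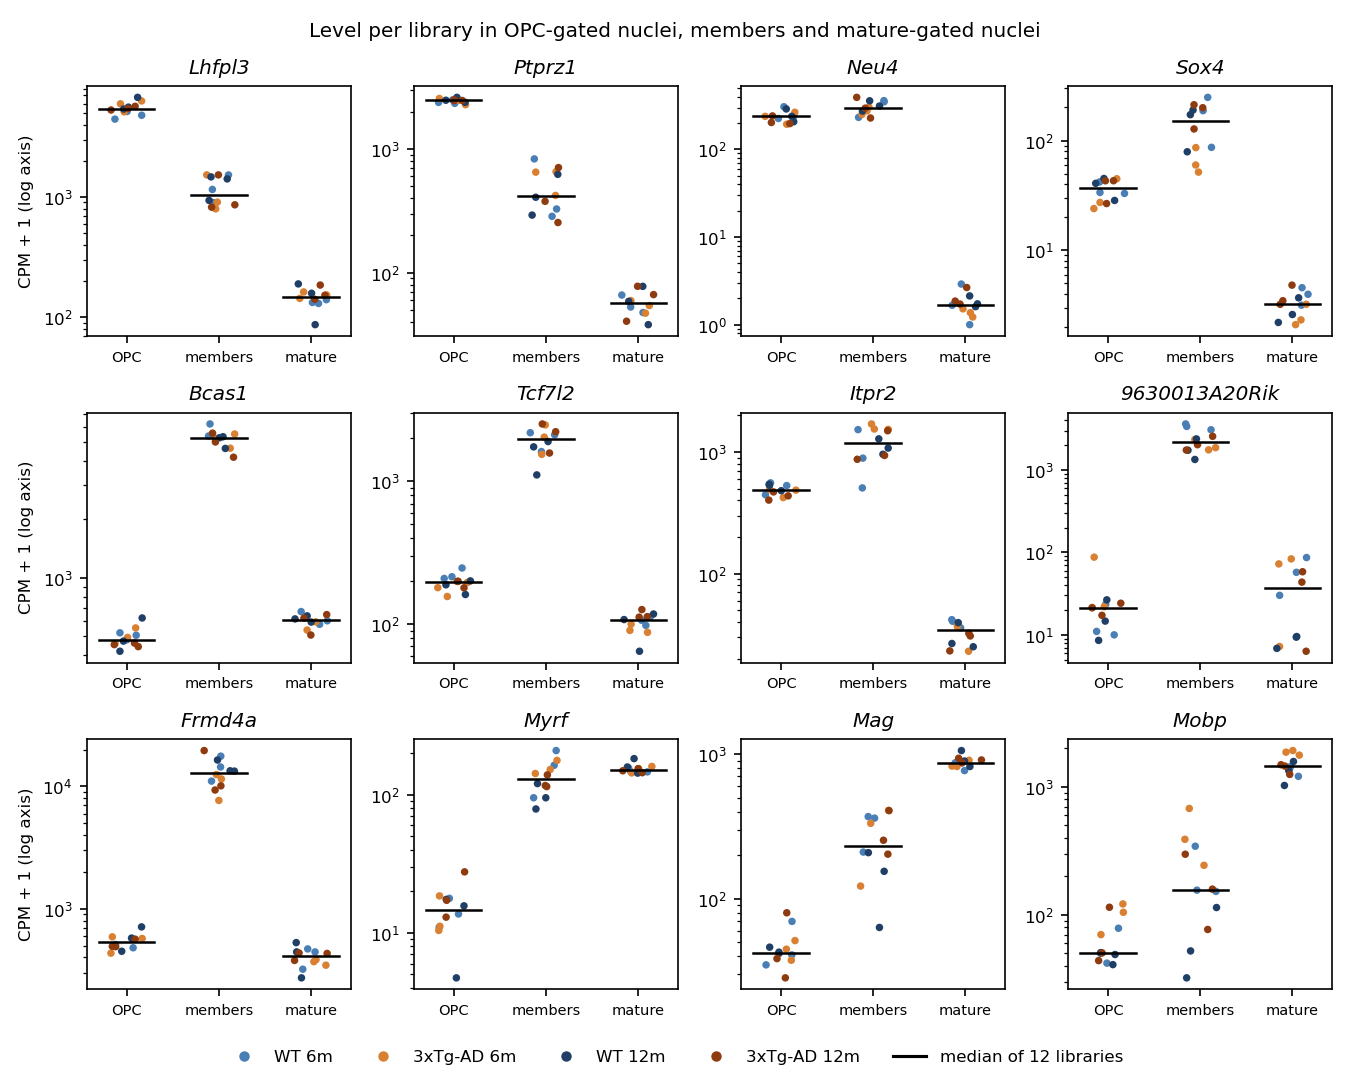
Level of 12 genes in OPC-gated nuclei, members and mature-gated nuclei; each point is 1 of 12 libraries in CPM + 1 on a log axis, coloured by group, and the line is their median. Lhfpl3 and Ptprz1 step down from precursors to mature nuclei, Bcas1, Tcf7l2, Itpr2, 9630013A20Rik and Frmd4a peak in members (Tcf7l2 1110 to 2528 CPM), and Mag and Mobp are highest in mature nuclei.

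Transcription factors of the lineage followed several courses. Myrf, the activator of myelin genes, was at 136 CPM in members against 15 CPM in OPC-gated and 152 CPM in mature-gated nuclei. St18 was at 3194, 198 and 4062 CPM. Zeb2, a repressor of inhibitory signals, was at 3064, 832 and 2391 CPM and Zfp488 at 87.1, 29.4 and 20.9 CPM, both above both stages in 12 of 12 libraries. Sox10, the common factor of the lineage, was at 338, 283 and 194 CPM. Olig1 was lower in members than in OPC-gated nuclei in all 12 libraries, at 69.7 against 165 CPM. Sox10 and Olig1 could place a nucleus in the OPC gate, which in part set their level there. Hes5, a Notch target that blocks differentiation, was at 2.8 against 72.0 CPM. The 6 listed cell-cycle genes were Mki67, Top2a, Cenpf, Cdk1, Cenpe and Aurkb, of which only Top2a, Cdk1 and Aurkb were at 0 in members. With 187 nuclei this does not show that no member was cycling.

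Wnt and BMP genes were examined because Tcf7l2 and Bmp4 belong to these pathways. Tcf7l1, a relative of Tcf7l2, was at 358 CPM in members, 47.2 CPM in OPC-gated and 9.4 CPM in mature-gated nuclei, higher in members in 12 of 12 libraries. Axin2, a target of Wnt signalling, was at 30.3 against 25.3 CPM in OPC-gated nuclei and above them in 8 of 12 libraries, a difference without a constant direction. The inhibitory Smad7, a target of BMP and TGF-beta signalling that promotes myelination, was at 138, 36.9 and 289 CPM in members, OPC-gated and mature-gated nuclei. The BMP receptor Bmpr1a was at 110, 127 and 112 CPM in the same order, above the OPC-gated nuclei in 4 of 12 libraries.

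Genes of axon contact and glutamate receptors also differed between the stages. Nfasc, which assembles the axon-glia junction, was at 3933, 224 and 812 CPM, the semaphorin Sema4d at 612, 37.2 and 125 CPM and the plexin receptor Plxnb3 at 283, 49.7 and 138 CPM, all above both stages in 12 of 12 libraries. The AMPA receptor subunit Gria2 was at 1952, 1278 and 294 CPM and the kainate receptor subunit Grik2 at 2294, 1407 and 1324 CPM, again above both in 12 of 12. Gria3 was instead lower than in OPC-gated nuclei in 12 of 12 libraries, at 234 against 627 CPM.

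At a higher resolution of 2 the cluster of 188 nuclei separated into 109 and 79 nuclei, called Brinp3-high and Pik3r3-high here by genes that mark them. The parts were made from these same genes, so the values describe them. Brinp3-high nuclei (78 members, median 4644 UMIs) had Brinp3 at 1483 against 68.6 CPM, the precursor genes Lhfpl3 at 1927 against 372 CPM and Sox5 at 781 against 189 CPM, and Nkx2-2 of the committed stage at 250 against 64.5 CPM. Gpr17 was at 703 against 202 CPM and Bmp4 at 340 against 183 CPM. Gpr17, Lhfpl3 and Sox5 were higher in the Brinp3-high nuclei in all 12 libraries.

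Pik3r3-high nuclei (54 members, median 5726 UMIs) had more of the newly formed markers Tcf7l2 and Enpp6 and of the myelin gene Mbp, among others. Pik3r3 was at 5963 against 689 CPM, Tcf7l2 at 4177 against 1094 CPM, Frmd4a at 28355 against 5708 CPM, Nfasc at 7935 against 1870 CPM, Mbp at 4792 against 1321 CPM, Sema4d at 1215 against 304 CPM and Enpp6 at 1473 against 727 CPM. All of these were higher in the Pik3r3-high nuclei in 12 of 12 libraries. Itpr2, also a marker of the newly formed stage, did not separate the parts (1308 against 1441 CPM, higher in 7 of 12 libraries), nor did Fyn (4333 against 4513 CPM, 6 of 12). Doublets were called in 8 of 109 Brinp3-high and 13 of 79 Pik3r3-high nuclei.

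**Figure D3:**
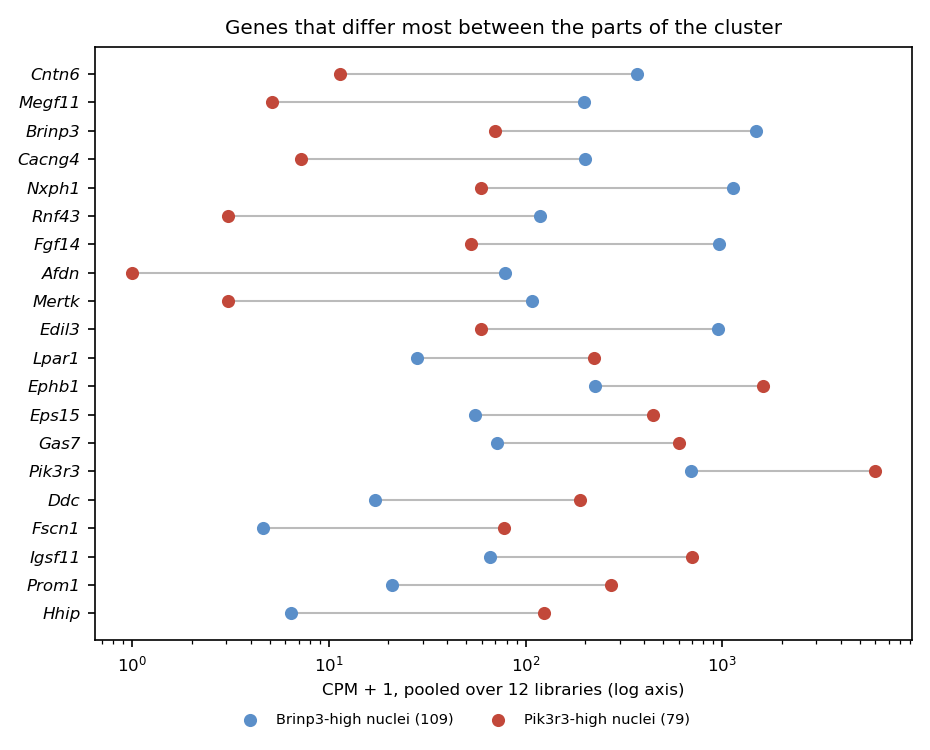
Pooled level (CPM + 1, log axis) of the 20 genes that differ most between the 109 Brinp3-high nuclei and the 79 Pik3r3-high nuclei of the cluster; each row is a gene and the line joins its 2 levels. Brinp3 falls from 1483 to 68.6 CPM and Pik3r3 rises from 689 to 5963 CPM between the parts.

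Both parts were present in every library. The Pik3r3-high share of the cluster was 22.2% to 62.5% over libraries, and pooled by group it was 41.4% in WT and 37.5% in 3xTg-AD at 6 months, and 41.4% in WT and 47.2% in 3xTg-AD at 12 months. These shares rest on 8 to 21 cluster nuclei per library and were not tested.

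The first comparison over samples asked whether the share of members differed between genotypes or ages. At 6 months the members were 17, 21 and 12 nuclei in WT replicates 3, 7 and 11, which is 0.140%, 0.131% and 0.0760% of retained nuclei, and 21, 17 and 14 nuclei in 3xTg-AD replicates 1, 5 and 9, which is 0.148%, 0.107% and 0.0783%. The genotypes overlapped at this age. At 12 months they were 11, 8 and 9 nuclei in WT replicates 4, 8 and 12 (0.0610%, 0.0605% and 0.0793%) and 17, 19 and 21 nuclei in 3xTg-AD replicates 2, 6 and 10 (0.113%, 0.121% and 0.106%). Here every 3xTg-AD library lay above every WT library. The 95% Wilson intervals of single libraries were wide, such as 0.0341% to 0.109% in WT replicate 4 and 0.0705% to 0.181% in 3xTg-AD replicate 2 at 12 months, and they cover counting error only.

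The share was 0.113% ± 0.00749 (SD, n = 3) in 12-month 3xTg-AD and 0.0669% ± 0.0107 (SD, n = 3) in 12-month WT libraries, with a two-sided exact permutation p of 0.1, which is the smallest that 3 against 3 libraries can give. At 6 months it was 0.111% ± 0.0351 against 0.116% ± 0.0348 (n = 3 libraries per genotype, exact permutation p = 1). With the ages pooled, the genotypes differed by 0.0209 percentage points (exact permutation p = 0.242, adjusted over the 12 tests of shares p = 0.416). Leaving out 1 library moved this difference between 0.0137 and 0.0307. It was 0.0309 with doublets left out, 0.00792 with members that had all 3 rule genes and 0.000978 with all nuclei of the cluster. The interaction of genotype and age was 0.0509 percentage points (exact permutation within ages, p = 0.135, adjusted p = 0.41). The share at 12 months minus that at 6 months was -0.0235 percentage points over both genotypes (exact permutation p = 0.188, adjusted p = 0.41), made up of -0.0490 in WT and 0.00195 in 3xTg-AD. Over both genotypes it became -0.00885 with nuclei thinned to 2000 UMIs and -0.0373 with doublets left out.

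The members were also counted against their neighbours in the lineage. Members per 100 OPC-gated nuclei were 4.88 ± 0.8 in 3xTg-AD and 3.10 ± 0.512 in WT at 12 months (SD, n = 3 libraries per genotype, exact permutation p = 0.1), and 5.54 ± 2.36 against 6.11 ± 1.87 at 6 months (exact permutation p = 0.9). Per 100 mature-gated nuclei the genotypes overlapped at 12 months, with 0.705 ± 0.237 in 3xTg-AD and 0.361 ± 0.127 in WT (SD, exact permutation p = 0.2), since 3xTg-AD replicate 10 at 0.439 lay below WT replicate 12 at 0.505. Members per 100 mature-gated nuclei were 0.533 ± 0.254 in the 6 older and 0.871 ± 0.197 in the 6 younger libraries (SD), with an exact permutation p of 0.0346 that did not hold after adjustment (adjusted p = 0.41). The share of members with Gpr17 and Enpp6 but without Bmp4 was made from genes that the rule used. It describes the members and is no independent measure of stage. Bmp4 was found in 54.1% of Brinp3-high and 48.1% of Pik3r3-high nuclei. Members with Enpp6 and Gpr17 but no Bmp4 had a median of 4829 UMIs, against 5825.5 in members with all 3 genes. The share was 35.7% ± 13.3 in the 6 older and 29.5% ± 13.1 in the 6 younger libraries (SD, exact permutation p = 0.433). The difference of 6.19 percentage points was 2.64 without 3xTg-AD replicate 5 and 11.1 without WT replicate 12, and it turned to -6.86 with nuclei thinned to 2000 UMIs. By genotype the share without thinning came to 34.1% ± 12.9 for 3xTg-AD and 31.1% ± 14.2 for WT (exact permutation p = 0.693). With thinning 3xTg-AD minus WT was 11.8 percentage points (exact permutation p = 0.0216, adjusted p = 0.26).

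The test turned on how the stage was bounded. With all 188 nuclei of the cluster in place of the members, the shares were 0.173%, 0.113% and 0.120% in WT and 0.113%, 0.107% and 0.0839% in 3xTg-AD at 6 months, and 0.0665%, 0.0605% and 0.0793% in WT and 0.106%, 0.102% and 0.106% in 3xTg-AD at 12 months. The interaction was then 0.0699 percentage points (exact permutation p = 0.01, adjusted over the same 12 tests p = 0.0364). With the 132 members inside the cluster, a setting chosen after seeing the data, it was 0.0292 (exact permutation p = 0.25, adjusted p = 0.514), and with doublets left out 0.0823 (exact permutation p = 0.05, adjusted p = 0.195). At 12 months alone, 3xTg-AD minus WT was 0.0464 percentage points over all members, 0.0264 with the members inside the cluster and 0.0721 with doublets left out (exact permutation p = 0.1 for each). Per 100 OPC-gated nuclei the difference of 1.78 became 0.953 and 3.18 in these settings. Leaving out doublets took uneven parts of the members at this age. It kept 4 of 11, 2 of 8 and 7 of 9 members in WT replicates 4, 8 and 12. In 3xTg-AD replicates 2, 6 and 10 it kept 16 of 17, 15 of 19 and 19 of 21. The interaction was 0.0509 over all members, 0.0303 with nuclei thinned to 2000 UMIs (exact permutation p = 0.285, adjusted p = 0.393) and 0.00854 with the 92 members that had all 3 rule genes (exact permutation p = 0.75, adjusted p = 0.844). With those 92 members 3xTg-AD minus WT at 12 months was 0.0122 percentage points (exact permutation p = 0.6) and 0.497 per 100 OPC-gated nuclei (exact permutation p = 0.4).

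Other properties of the libraries are given beside these shares, and their part was not tested. The summed level of 5 genes enriched in striatal neurons (Drd1, Drd2, Adora2a, Rgs9 and Ppp1r1b, a list chosen after the data were seen) over retained nuclei was 42.6, 60.1 and 51.2 CPM in WT and 254, 244 and 79.2 CPM in 3xTg-AD at 12 months, and 91.0, 111 and 346 CPM in WT and 75.1, 115 and 145 CPM in 3xTg-AD at 6 months. It was higher in every 3xTg-AD than in every WT library at 12 months, but highest at 6 months in WT replicate 11, the library with the lowest share of members at that age. Mature-gated nuclei were 23.1%, 19.3% and 15.7% of retained nuclei in WT and 12.6%, 15.5% and 24.1% in 3xTg-AD at 12 months, and 16%, 12.2% and 11.4% in WT and 13%, 13.9% and 11.2% in 3xTg-AD at 6 months, so that the genotypes overlapped at both ages. In a share of nuclei, fewer members and fewer captured members cannot be told apart.

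**Figure D4:**
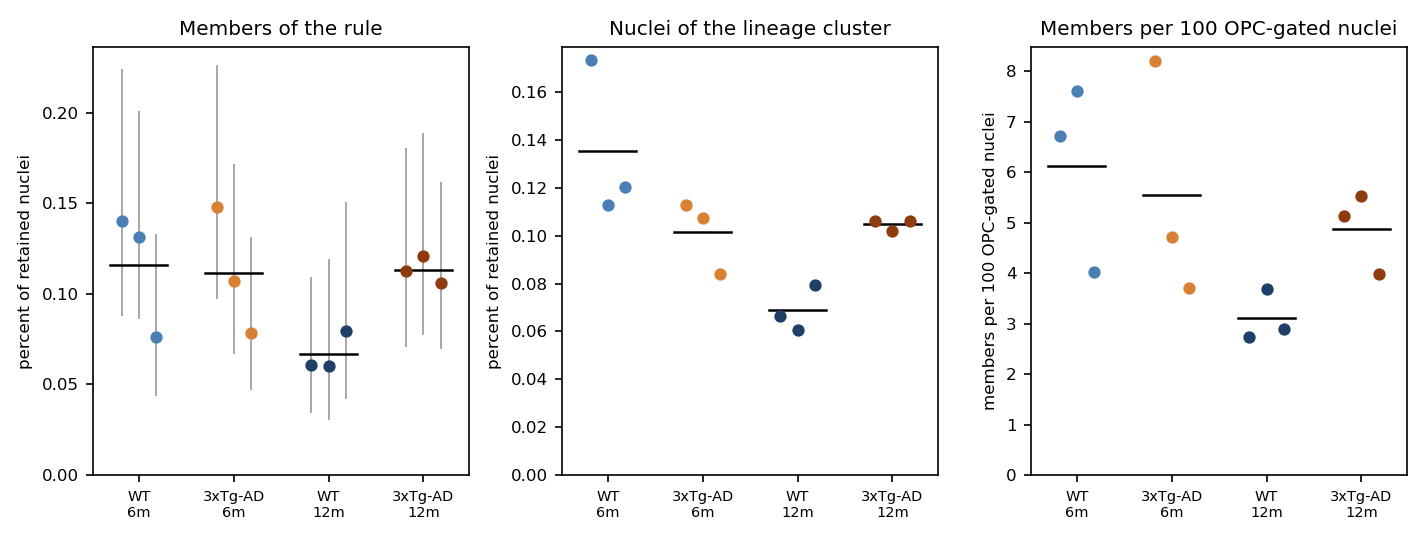
Share of members (left) and of nuclei of the lineage cluster (middle) among retained nuclei, in percent, and members per 100 OPC-gated nuclei (right), by group; each point is a library, the black line is the group mean, and the bars on the left are 95% Wilson intervals. At 12 months the 3 3xTg-AD libraries (0.106% to 0.121%) lie above the 3 WT libraries (0.0605% to 0.0793%), whereas the groups overlap at 6 months.

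Gene expression in members was then compared between genotypes, as UMIs summed over the members of a library, with the quasi-likelihood test of edgeR. Libraries with at least 10 members entered, so that all 6 libraries of 6 months did, but at 12 months only replicate 4 of WT was left against 3 of 3xTg-AD. Calls needed adjusted p below 0.05 together with a log2 fold change beyond 0.2 in size. At 6 months 3 of 2144 tested genes were called (0.14%), all lower in 3xTg-AD. Over both ages 1 of 2709 was called (0.0369%), Mink1, and at 12 months 1 of 2481 (0.0403%), Gria1. Other settings called more genes over both ages beside Mink1. DESeq2 called AC149090.1, Gria2, Slc4a10 and Tmem163, and edgeR with all 12 libraries called Ano4, Gria2 and Tmem163. With doublets left out, with the members inside the cluster and without WT replicate 4, edgeR called AC149090.1, Mb21d2 and Tmem163, and D430041D05Rik too in the second of these, but these fits held no WT library of 12 months. Without 3xTg-AD replicate 2 it called Tmem163, without WT replicate 3 Rhbdl2, with the nuclei of the cluster Adam18, and without the filter on low counts 69 genes in all.

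Mink1 (GRCm38, chr11:70562881-70614483, + strand), a kinase of the Ste20 family, was lower in 3xTg-AD members over both ages. Its level was 256, 377 and 511 CPM in the WT libraries at 6 months (replicates 3, 7 and 11), 296, 256 and 546 CPM at 12 months (replicates 4, 8 and 12), 103, 70.8 and 123 CPM in 3xTg-AD at 6 months (replicates 1, 5 and 9) and 101, 84.2 and 98.8 CPM at 12 months (replicates 2, 6 and 10). Every 3xTg-AD library lay below every WT library. The log2 fold change was -1.81 (SE 0.273, edgeR adjusted p = 0.0227). Leaving out 1 of 7 of the 10 libraries ended the call, which were WT replicates 7 and 11 and 3xTg-AD replicates 1, 5 and 9 at 6 months and 3xTg-AD replicates 6 and 10 at 12 months. The edgeR adjusted p was then 0.108, 0.0611, 0.0886, 0.12, 0.0729, 0.0636 and 0.0631 in that order. The log2 fold change lay between -2.22 and -1.65 in all settings tried.

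Mink1 was found in several members of every library and was not carried by 1 nucleus. At least 1 UMI was found in 11 of 17, 16 of 21, 10 of 12, 5 of 11, 5 of 8 and 8 of 9 members of the WT libraries in the same order, and in 8 of 21, 6 of 17, 8 of 14, 7 of 17, 7 of 19 and 8 of 21 members of the 3xTg-AD libraries. A single nucleus gave at most 40% of the Mink1 UMIs of a library. In WT replicates 4, 8 and 12 the highest nucleus gave 36.8% of 19, 40% of 15 and 27.6% of 29 UMIs. It was called a doublet in each of these, as in 3xTg-AD replicates 6 and 10 but not in 3xTg-AD replicate 2. In OPC-gated nuclei Mink1 was 47.9 to 77.2 CPM over libraries and differed by -0.21 (log2 of CPM + 5, 3xTg-AD minus WT, exact permutation p = 0.0801, adjusted p = 0.247). In mature-gated nuclei it was 188 to 300 CPM and differed by -0.03 (exact permutation p = 0.779, adjusted p = 0.797). The member level relative to that of the OPC-gated nuclei of the same library was 2.42 in WT and 0.78 in 3xTg-AD on the log2 scale, and relative to mature-gated nuclei 0.55 and -1.26. The exact permutation test of the genotypes gave p = 0.00216 for each of these ratios, the smallest that 6 against 6 libraries can give (adjusted over 10 ratios of the 5 called genes p = 0.0108). Mink1 was chosen on these same libraries, so that this is not independent evidence.

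Tmem163 (chr1:127486546-127679548, - strand), a zinc transporter of vesicles, was called at 6 months with a log2 fold change of -1.97 (SE 0.302, edgeR adjusted p = 0.0173). It was at 1115, 1773 and 1835 CPM in WT and 471, 273 and 454 CPM in 3xTg-AD at 6 months. At 12 months it was at 764, 1435 and 885 CPM in WT and 569, 421 and 455 CPM in 3xTg-AD, so that the genotypes did not overlap at either age. Over both ages it missed the threshold (edgeR adjusted p = 0.0829), but was called in other settings, as given above. The call at 6 months was lost without WT replicate 7 (edgeR adjusted p = 0.122), 3xTg-AD replicate 1 (0.0605) or 3xTg-AD replicate 9 (0.14), and with the nuclei of the cluster in place of the members (0.138). The log2 fold change was then -1.88, -2.12, -2.07 and -1.80 in the same order.

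Tmem163 was also lower in the neighbouring stages. It differed by -2.37 in OPC-gated and -1.51 in mature-gated nuclei (log2 of CPM + 5, 3xTg-AD minus WT, exact permutation adjusted p = 0.0108 for each), and every 3xTg-AD library lay below every WT library in both. Its level was nevertheless highest in members of the 3 stages in 12 of 12 libraries, at 823 CPM against 126 CPM in OPC-gated and 55.0 CPM in mature-gated nuclei. The log2 ratio of members to OPC-gated nuclei was higher in 3xTg-AD by 0.863 (exact permutation adjusted p = 0.026), as Tmem163 fell further in OPC-gated nuclei. The ratio to mature-gated nuclei differed by 0.00151 (adjusted p = 0.994). Within the cluster Tmem163 was at 1739 CPM in Pik3r3-high and 358 CPM in Brinp3-high nuclei, higher in the former in 12 of 12 libraries.

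Mb21d2 (chr16:28826176-28929673, - strand) was called at 6 months with a log2 fold change of -1.99 (SE 0.285, edgeR adjusted p = 0.0138). Its level was 720, 505 and 511 CPM in WT and 132, 172 and 142 CPM in 3xTg-AD at 6 months, and 203, 376 and 245 CPM in WT and 126, 295 and 198 CPM in 3xTg-AD at 12 months. The genotypes were apart at 6 months and overlapped at 12. The call was lost without WT replicate 3 (edgeR adjusted p = 0.0823), 3xTg-AD replicate 1 (0.081) or 3xTg-AD replicate 9 (0.14), and with the nuclei of the cluster (0.303), at log2 fold changes of -1.81, -1.91, -1.95 and -1.44 in that order. It differed by 0.06 in OPC-gated and -0.02 in mature-gated nuclei (log2 of CPM + 5, exact permutation adjusted p = 0.797 for each, over both ages). The log2 ratio of members to these nuclei differed by -1.24 and -1.16 in the same order (exact permutation adjusted p = 0.026 for each). Mb21d2 was chosen on these same libraries, so that the ratios are not independent evidence. In WT replicate 11, 1 nucleus gave 51.9% of its 27 UMIs.

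AC149090.1, a protein-coding gene on the unplaced scaffold JH584304.1 (52190 to 59690, - strand), whose reads may be shared with similar copies so that its levels are uncertain, had a log2 fold change of -3.04 at 6 months (SE 0.414, edgeR adjusted p = 0.0138). It was at 488, 831 and 1248 CPM in WT and 132, 111 and 57.2 CPM in 3xTg-AD at 6 months, but at 546, 222 and 527 CPM in WT and 809, 305 and 751 CPM in 3xTg-AD at 12 months. OPC-gated nuclei at 6 months were likewise apart by genotype, with 442, 537 and 536 CPM in WT and 128, 113 and 83.2 CPM in 3xTg-AD, so that this difference was not particular to members. In WT replicate 11, 1 nucleus gave 34 of its 66 UMIs (51.5%). The call in members was lost without 3xTg-AD replicate 9 (edgeR adjusted p = 0.14) and with the nuclei of the cluster (0.112), at log2 fold changes of -2.77 and -3.06.

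Gria1 (chr11:57011387-57330244, + strand), the AMPA receptor subunit GluA1, was called at 12 months with a log2 fold change of -4.50 (SE 0.463, edgeR adjusted p = 0.0219). This value came from 1 nucleus. WT replicate 4 had 1855 CPM from 119 UMIs, of which 114 (95.8%) were in 1 member with 10620 UMIs, 1 transmitter UMI, no doublet call and a place outside the lineage cluster. The other WT libraries were at 37.8 to 137 CPM and the 3xTg-AD libraries at 36.8 to 227 CPM. With members that had no transmitter UMI, no gene was called at 12 months.

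**Figure D5:**
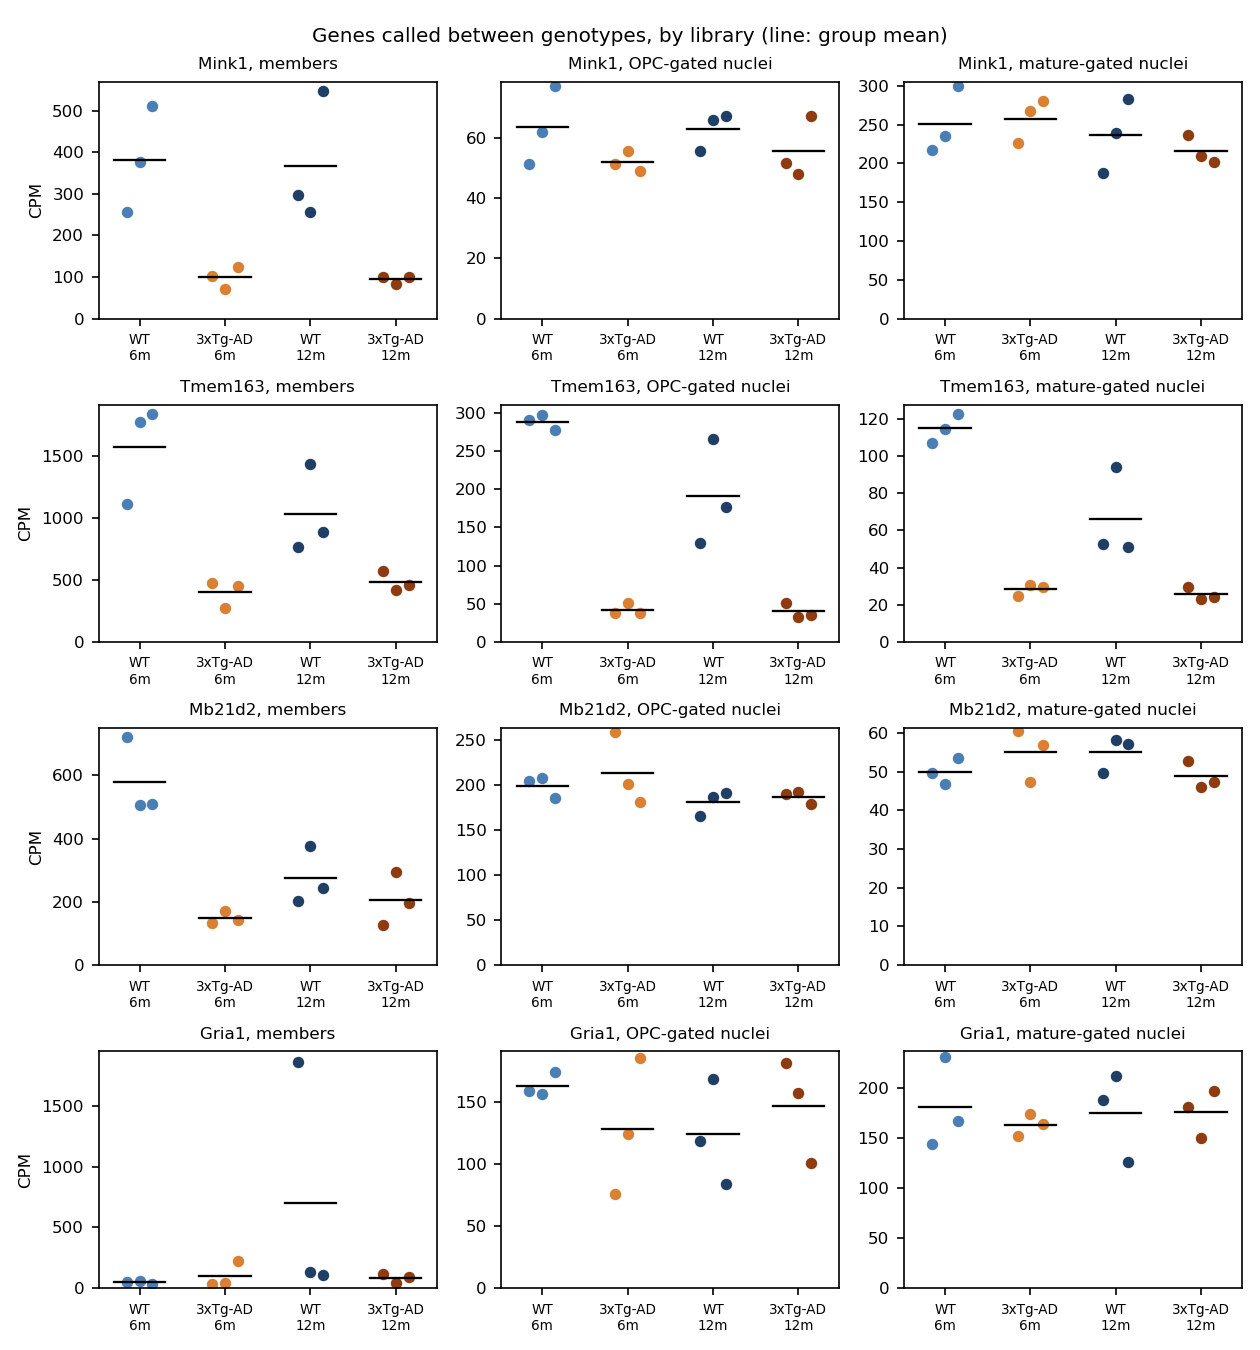
Level in CPM of Mink1, Tmem163, Mb21d2 and Gria1 (rows) in members, OPC-gated and mature-gated nuclei (columns) by group; each point is a library and the line is the group mean. Mink1 is lower in 3xTg-AD members (70.8 to 123 CPM) than in WT members (256 to 546 CPM) with overlap in the other stages, Tmem163 is lower in 3xTg-AD in all 3 stages, and Gria1 in members has 1 library at 1855 CPM.

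Beyond these genes few separated the genotypes in every library. Of the 2709 genes tested over both ages, 14 had all 6 3xTg-AD libraries below all 6 WT libraries (0.517%) and 7 had all above (0.258%), 21 in either direction (0.775%), which include Mink1 and Tmem163. Gria2, the subunit that sets the calcium permeability of AMPA receptors, was among them, at 2098 to 3466 CPM (median 2517) in WT and 1364 to 1871 CPM (median 1415) in 3xTg-AD members. It missed the threshold (edgeR adjusted p = 0.378) but was called by DESeq2 and by edgeR with all 12 libraries, and OPC-gated nuclei overlapped, with 1150 to 1386 CPM in WT and 1227 to 1341 CPM in 3xTg-AD. The genes with the smallest p that missed the threshold were Mink1 and Vwc2 at 6 months (adjusted p = 0.11 for each), Grip1, Shisa6, Ptn and Sema6d at 12 months (adjusted p = 0.287 to 0.365), and Tmem163, Slc4a10, Ano4 and Gria2 over both ages (adjusted p = 0.0829 to 0.378), all from edgeR. At 6 months Mink1 was called by DESeq2, and by edgeR with doublets left out and with the members inside the cluster. Vwc2 was called there without 3xTg-AD replicate 5. Some values of the genes that missed the threshold also rested on 1 nucleus. The member of WT replicate 4 with 10620 UMIs, which carried Gria1 as given above, held 55 of 61 Grip1, 23 of 26 Shisa6 and 29 of 87 Sema6d UMIs of its library. A nucleus called a doublet held 70 of 75 Slc4a10 UMIs of 3xTg-AD replicate 5 at 6 months, and 1 nucleus held 51 of 76 Ano4 UMIs of 3xTg-AD replicate 1. For Vwc2, 1 nucleus held 14 of 23 UMIs of WT replicate 3.

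The markers of the stage did not pass the test between genotypes. Tcf7l2 was at 1979 ± 314 CPM in WT and 2027 ± 471 CPM in 3xTg-AD at 6 months, and 1586 ± 420 CPM against 2113 ± 484 CPM at 12 months (SD, n = 3 each), with a log2 fold change over both ages of 0.11 (SE 0.205, edgeR adjusted p = 0.956). Itpr2 was at 973 ± 515 CPM against 1592 ± 92.9 CPM at 6 months and 1104 ± 164 CPM against 1100 ± 343 CPM at 12 months (log2 fold change 0.47, SE 0.276, edgeR adjusted p = 0.763). Enpp6, which the rule used, was at 1166 ± 408 CPM in WT and 1033 ± 41.3 CPM in 3xTg-AD at 6 months and at 911 ± 126 CPM against 958 ± 111 CPM at 12 months.

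The pathway lists held no call over both ages, where the median log2 fold change of all 2709 genes was 0.00. Of 9 tested genes of the newly formed stage, 7 were lower and 2 higher in 3xTg-AD (median -0.27), and of 9 of the committed stage, 8 were lower (median -0.23). These lists share Bcas1 (-0.14) and Fyn (-0.23), so that their counts are not separate. Vcan (-0.07) is in both the committed and the precursor list, and Epha4 (-0.25) in the committed and the axon contact list. Nkx2-2 (0.11) of the committed list and Tcf7l2 (0.11) of the newly formed list are also among the factors that promote differentiation. Of 11 myelin genes 8 were higher (median 0.30), and all 6 of the 10 mature genes that could be tested were higher (median 1.01). At 6 months 5 of 10 myelin genes were higher (median -0.04) and 1 mature gene could be tested. At 12 months, against a single WT library in which 7 of 11 members were called doublets, 10 of 11 myelin genes (median 1.05) and 6 of 6 mature genes (median 2.27) were higher, beside a median of 0.07 over all genes. The interaction of genotype and age rests on the same single WT library at 12 months. In it 13 of 13 tested myelin genes (median 1.29) and 6 of 7 mature genes (median 1.63) were higher. The median over all genes was 0.07. With 1 WT library at 12 months the ages are not shown to differ. Members outside the cluster held 2036 CPM of the mature list against 291 CPM inside, and their part in these values was not tested. At 12 months 8 of 11 members of WT replicate 4 lay inside the cluster. In 3xTg-AD replicates 2, 6 and 10 these were 12 of 17, 11 of 19 and 16 of 21. Of 6 BMP genes 5 were lower (median -0.35), but Bmp4 (-0.40), which the rule used, is among them, and of the other 5, with Bmpr1a in the middle at -0.30, 4 were lower. Of 5 Wnt genes 3 were lower (median -0.12), of 10 axon contact genes 6 (median -0.16), of 13 glutamate and GABA receptor genes 7 (median -0.07), of 7 precursor genes 4 (median -0.06), and of 11 factors that promote differentiation 5 (median 0.02). App and Mapt, the mouse genes whose human forms are transgenes, had log2 fold changes of 0.03 and 0.33 (edgeR adjusted p = 0.996 and 0.783). None of the 6 cell-cycle genes passed the filter on low counts.

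Age and the interaction gave no calls. Between 12 and 6 months, 0 of 2709 genes (0%) were called by edgeR and 164 had an unadjusted p under 0.05, and DESeq2 called 3, which were Ralyl, Col25a1 and Nrxn3. The log2 fold changes of Col25a1, Nrxn3 and Ralyl were 3.45, 1.83 and 1.07 (edgeR adjusted p = 0.216, 0.255 and 0.255). Single nuclei carried much of the values of Col25a1 and Nrxn3. For Col25a1, 1 nucleus gave 42 of 45 UMIs in 3xTg-AD replicate 6 and another 18 of 19 in 3xTg-AD replicate 2 at 12 months. For Nrxn3, the member of WT replicate 4 with 10620 UMIs that carried Gria1 gave 181 of 184 UMIs. The Col25a1 nucleus of 3xTg-AD replicate 2, with 14101 UMIs, also gave 116 of 145 Nrxn3 UMIs there. For Ralyl, the highest nucleus of a 12-month library in the fit gave 17.2% to 50% of its UMIs. In WT replicate 4 (50%) and 3xTg-AD replicate 2 (25%) it was the same nucleus as for Nrxn3. These nuclei of Col25a1 and Nrxn3 lay outside the cluster, and the one of Col25a1 in replicate 6 was called a doublet. Beside these genes, all 4 tested neuronal markers were higher at 12 months (median log2 fold change 1.1) against a median of -0.01 over all genes, and the part of neuronal RNA in these values was not tested. For the interaction of genotype and age, 0 of 3449 genes (0%) were called by edgeR and 207 had an unadjusted p under 0.05, and DESeq2 called Gria1.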

How the data were processed

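Left hippocampal nuclei of 12 libraries, 3 per genotype and age, were analysed. Per the labels, the authors used 10x Genomics 3′ v3 chemistry, Cell Ranger 6.1.1 and mm10 (GRCm38), and the deposited values are raw UMI counts per gene and nucleus, before removal of ambient RNA and filters on nuclei. Labels named the groups, replicate numbers are the sample numbers, and each library was from 1 mouse. The members and gene lists were chosen with earlier results of these data known.

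Lineage nuclei were clustered with leidenalg 0.10.2 at resolutions of 0.5, 1 and 2, on a graph of shared nearest neighbours. Doublets were called per library with Scrublet within scanpy 1.11.5 (expected share 8%). Summed counts were tested in R 4.3.3 with edgeR 4.0.16 (TMM, filterByExpr, Benjamini-Hochberg; SE from the F statistic), and DESeq2 1.42.0 was an alternative. Fits were tested on simulated data. Genes changed by a log2 fold change of 1.5 were called in 75.9% at 6 months, 73.2% over both ages and 90.3% for age. They were called in only 10.9% at 12 months and 7.61% for the interaction, and in 66.7% and 37.5% at a change of 3. Each fit made 2 to 13 false calls. Few or no calls at 12 months and for the interaction thus do not show that genes were unchanged. For shares, libraries were permuted exactly (two-sided). Named genes were the listed genes, the called genes, the 5 with the smallest p where under 5 were called, and the 15 highest in members; the genes of the cluster's parts, the striatal genes and Gria2 as a gene without overlap were chosen after their values were seen. Some items are not reported here. Positions are from GENCODE vM21.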

Additional observations from a re-analysis of the deposited data

Results flagged for a closer look

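Gria1 in members of WT replicate 4 at 12 months, at 1855 CPM, stood far from the other 5 WT libraries, the nearest of which was at 137 CPM. It was the only 1 of 26 checks for a library apart from its group that passed the limit. Chance passes about 1 in 20 of separate checks, but these were not separate, as they reused the same libraries. Gria1 was checked because it was called at 12 months, in a fit whose only WT library was replicate 4. The flag is therefore not independent of that call. In that library 114 of 119 Gria1 UMIs were in 1 nucleus.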

How the results depend on the processing

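The alternatives were RLE normalization, DESeq2, no filter on low counts, the study's filters on nuclei, doublets left out, members without a transmitter UMI, counts thinned to 2000 UMIs, nuclei of the lineage cluster in place of members, and each library left out. Members inside the cluster and all 12 libraries without a minimum of members were added after seeing the data. For the shares, 213 of 225 values kept their direction and their side of the threshold. No share passed the threshold in the main setting, so a value of the same sign without a call counted as kept whatever its size. The interaction of the share, at 0.0509 percentage points in the main setting and 0.00854 with all 3 rule genes, is an example. The count therefore does not show that sizes were stable. With the cluster nuclei the interaction of the share was 0.0699 percentage points, nuclei per 100 OPC-gated differed by -2.18 (12 minus 6 months) with an interaction of 3.38, nuclei per 100 mature-gated by -0.400 with an interaction of 0.501, each at an adjusted p of 0.0364, and the genotype difference per 100 OPC-gated nuclei turned to -0.386. The share of members with Gpr17 and Enpp6 without Bmp4 turned to -6.86 (age) and -4.28 (interaction) percentage points when thinned and to -5.12 (interaction) without transmitter UMIs, and without 1 library each its age difference ranged from 2.64 to 11.1, its genotype difference from -0.979 to 7.48 and its interaction from -3.96 to 15.9, the last 2 lowest without WT replicate 12 at 12 months. The cause was not tested.

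Of 81 counts of called genes, 44 stayed within 1.5 times. At 6 months DESeq2 called 5 genes, no filter 36, the cluster nuclei 0, members inside the cluster 5, and leaving out 1 library 0 (3xTg-AD replicate 9) to 6 (WT replicate 11). At 12 months no filter gave 32, no transmitter UMI 0, the cluster nuclei 23, all 12 libraries 0, and leaving out 1 library 1 to 58 (3xTg-AD replicate 2). Over both ages DESeq2 called 5, no filter 69, doublets left out 4, the cluster nuclei 2, members inside the cluster 5, all 12 libraries 4, and leaving out 1 library 0 to 4 (WT replicate 4). For age DESeq2 called 3, no filter 47, members inside the cluster 1, and leaving out 1 library 0 to 2 (3xTg-AD replicate 10). For the interaction DESeq2 called 1, no filter 12, and leaving out 1 library 0 to 1. The log2 fold changes of the 5 called genes kept their sign in 75 values, of which 17 were past the threshold no longer. At 12 months and for the interaction, fits without doublets, with members inside the cluster and without WT replicate 4 were not run, as no WT library of 12 months with 10 members was left. At 12 months the lone WT library was assumed to vary like the 3xTg-AD libraries.

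No paired analysis was run. The replicate numbers are the sample numbers, so they cannot show whether animals of different groups were paired. The members number 8 to 21 per library, which limits both shares and expression.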
